A study of Homo sapiens with 16 samples.

Results

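The regions described here were open in both T-cell leukaemia lines without drug, and with the SWI/SNF degrader ACBI-1 they lost their peak in MOLT4 cells and kept it in DND41 cells. They were chosen by the presence of ATAC-seq peaks alone. A region had a peak in all 8 DMSO libraries, in at most 1 of the 4 ACBI-1 libraries of MOLT4 and in at least 3 of the 4 ACBI-1 libraries of DND41. This rule gave 541 regions, out of 18483 with a peak in all 8 DMSO libraries and 131357 merged regions in all. The number depends on the lists: it was 185 with lists trimmed to equal length, and 925 to 1208 without 1 of the 3 h ACBI-1 libraries of MOLT4 or the 24 h ones of DND41, which loosens the rule. The losses that define the 541 regions are therefore a description and were not tested. Their peak width with DMSO was not part of the rule and was tested. It is not independent of the rule, since in each line narrow DMSO peaks were lost more often. In MOLT4, 46.6% of regions under 250 bp had a peak in at most 1 ACBI-1 library, against 0.167% at 700 bp or more. In DND41 these shares were 51.2% and 0.121%. A choice by loss in MOLT4 and not in DND41 therefore favours regions narrower in MOLT4.

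ATAC-seq uses the Tn5 transposase to insert sequencing adapters into accessible DNA, and a peak is a stretch where insertions pile up. The 4 treated groups were MOLT4 and DND41 cells given 100 nM ACBI-1 for 3 h or 24 h, and the 4 control groups were the same lines given DMSO for 3 h or 24 h. Each of these 8 groups had 2 libraries. Both are established lines of human T-cell acute lymphoblastic leukaemia, and both were grown in RPMI-1640 medium with serum. Nothing in the labels tells if paired libraries are separate cultures. The p-values therefore reflect only how much these libraries scatter, and that scatter may be technical. The cell line field contradicted the title in 8 of 16 samples. The line code in the peak names matched the title in all 16 libraries, as did the line of the library sharing most regions, so the titles were used.

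SWI/SNF complexes are ATP-driven remodellers that slide or evict nucleosomes and so keep promoters and enhancers reachable for transcription factors. Their motor is SMARCA4 or SMARCA2, and ACBI-1 is a PROTAC, a molecule that ties these ATPases and the PBRM1 subunit to an E3 ubiquitin ligase for destruction by the proteasome. MOLT4 and DND41 are known to carry different leukaemia drivers, TAL1 activation in MOLT4 and TLX3 activation in DND41, together with activated NOTCH1 in both.

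The lists held 26145 to 33870 peaks per ACBI-1 library and 39117 to 46712 per DMSO library. Read depth is unknown, so a missing peak may be a site below the detection limit of that library. Peak names carried the tag p04 at 3 h and p03 at 24 h. Its meaning is unknown, and time and tag cannot be told apart.

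Loss in MOLT4 alone was a minority pattern. Of the 18483 regions, 1736 had a peak in at most 1 ACBI-1 library of MOLT4, and 541 of them, or 31.2%, kept the peak in DND41. In the opposite direction, 1707 regions were in at most 1 ACBI-1 library of DND41, and 502 of them, or 29.4%, kept the peak in MOLT4. A further 747 regions were in at most 1 ACBI-1 library of each line, and 13851 were in at least 3 of each. The full contrast, no ACBI-1 library of MOLT4 and all 4 of DND41, was seen at 89 regions.

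**Figure D1:**
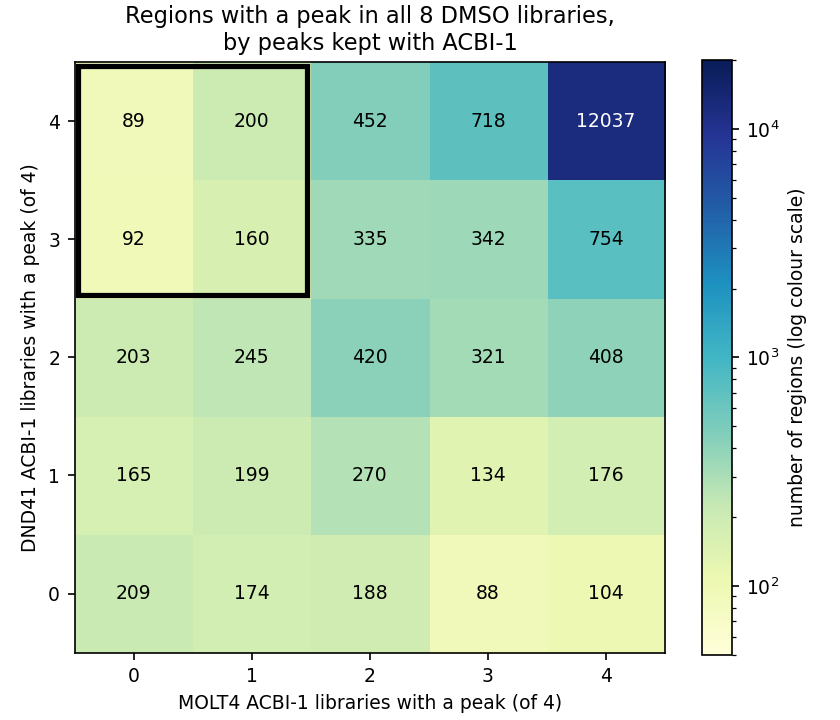
Numbers of the 18483 regions found in every DMSO library, by how many of the 4 MOLT4 ACBI-1 libraries (horizontal) and of the 4 DND41 ACBI-1 libraries (vertical) also had a peak. The black frame encloses the 541 regions described here, and the top right cell holds the 12037 regions found in every library.

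The few MOLT4 peaks that remained were mostly at 3 h. Of the 541 regions, 181 had no MOLT4 peak with ACBI-1, 293 had 1 at 3 h and 67 had 1 at 24 h. By library, ACBI-1 lists of MOLT4 held 120 and 173 of the regions at 3 h, and 47 and 20 at 24 h. In DND41, ACBI-1 lists held 505 and 529 at 3 h, and 447 and 431 at 24 h. All 4 DND41 libraries had the peak at 289 regions, 1 library was missing at 3 h for 48 and 1 was missing at 24 h for 204. In both lines the 24 h ACBI-1 libraries thus held fewer of these peaks than the 3 h ones. The same order of times held over all 18483 regions, of which the 24 h ACBI-1 libraries held 79.5 to 81.8% and the 3 h ones 86.6 to 92.2%.

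The comparison of the lines with DMSO asked whether these sites looked alike without drug. With DMSO the peaks were narrower in MOLT4 than in DND41, relative to the other peaks of the same libraries. The choice of the regions itself favours this direction. Width is the length in bp of the called peak and not a read count, and where a library had several peaks in a region the widest was taken.

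The median width over the 541 regions was 310 and 306 bp in the MOLT4 DMSO libraries of 3 h and 363 and 375 bp in those of 24 h. In the DND41 DMSO libraries it was 485 and 372 bp at 3 h and 556 and 539 bp at 24 h. Within each time the MOLT4 medians lay below both DND41 medians, although over both times the highest MOLT4 value passed the lowest DND41 value by 3 bp. As a share of the library's own median over all 18483 regions, the median was 55.3 ± 2.15% in MOLT4 and 82.2 ± 1.54% in DND41 (SD, n = 4 DMSO libraries each). These shares did not overlap, at 52.6 to 57.1% in MOLT4 and 80.0 to 83.6% in DND41.

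**Figure D2:**
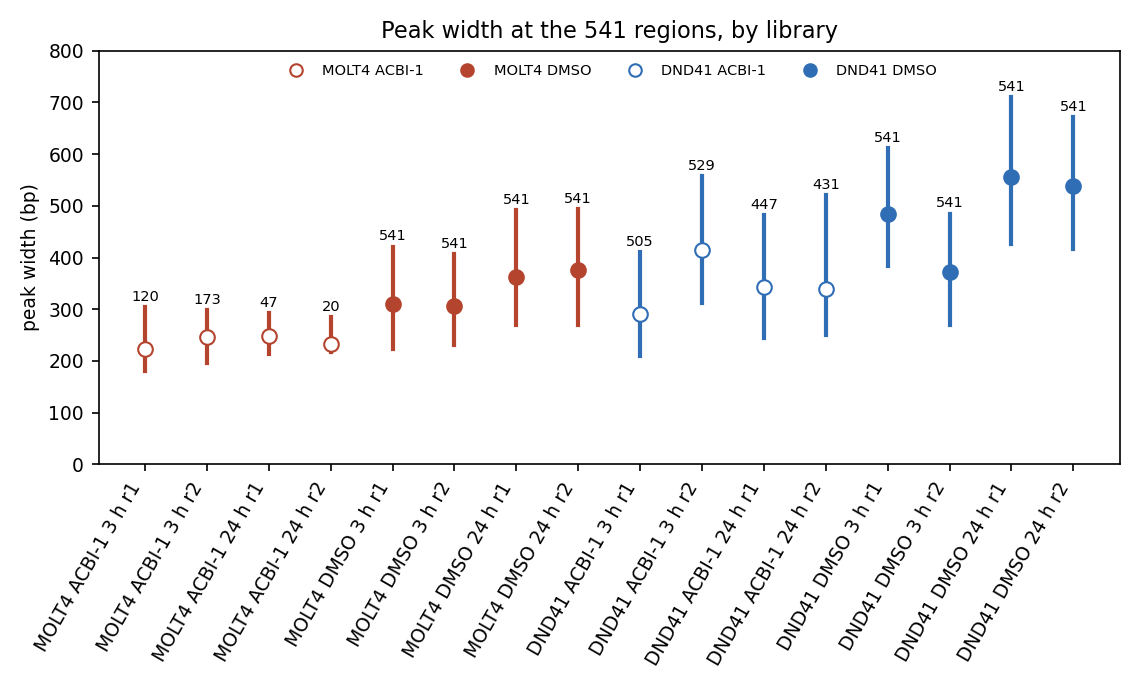
Peak width in bp at the 541 regions in each of the 16 libraries, as the median (circle) with the lower and upper quartile (line), over the regions that had a peak in that library. The number above each line counts those regions, and r1 and r2 are the replicates. MOLT4 DMSO medians run from 306 to 375 bp and DND41 DMSO medians from 372 to 556 bp.

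Region by region, log2 width was centred on the median of each DMSO library and fitted with limma at all 18483 regions, with time as a covariate. Of the 541 regions, 85, or 15.7%, were narrower in MOLT4 at a Benjamini-Hochberg adjusted p under 0.05, against a background of 342 of all 18483, or 1.85%. None of the 541 was called wider in MOLT4 in the limma fit, against a background of 304 of all regions, or 1.64%. With an unadjusted p under 0.05, 294 of the 541 were narrower and 4 wider, against 2024 narrower and 1757 wider among all 18483. The 85 regions were 24.9% of all those called narrower. The median log2 ratio of MOLT4 over DND41 was -0.55 over the 541 regions and -0.02 over all regions, with quartiles of -0.84 and -0.27 and of -0.19 and 0.16. In all, 489 of the 541, or 90.4%, had a ratio below 0, against 53.3% of all regions.

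The number of calls depended on the libraries and on the fit. It was 28 to 49 of the 541 when any 1 DMSO library was left out, against 102 to 175 of all regions. With all 8 libraries and no centring, 35 of the 541 were called narrower, and of all regions 121 were narrower and 175 wider. With a replicate block 36 of the 541 and 150 of all were called narrower, and with the summed width of all peaks in a region 114 and 476. On width percentiles 80 of the 541 were called narrower, and of all regions 305 were narrower and 120 wider. At 3 h alone and at 24 h alone limma called 0 of the 541 regions and 0 of all 18483. With an unadjusted p under 0.05, 185 of the 541 were narrower in MOLT4 at 3 h and 205 at 24 h, and 6 and 8 were wider. Among all 18483 regions, 1156 were narrower and 1133 wider at 3 h, and 1394 narrower and 1292 wider at 24 h, by the same threshold. The median ratio within each time was -0.49 at 3 h and -0.54 at 24 h.

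A count without a model gave the same direction. After centring each library on its median, both MOLT4 widths lay below both DND41 widths within each time at 251 of the 541 regions. This was 46.4%, against 10.8% of all regions. The reverse order held at 1 of the 541, against 8.36% of all.

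**Figure D3:**
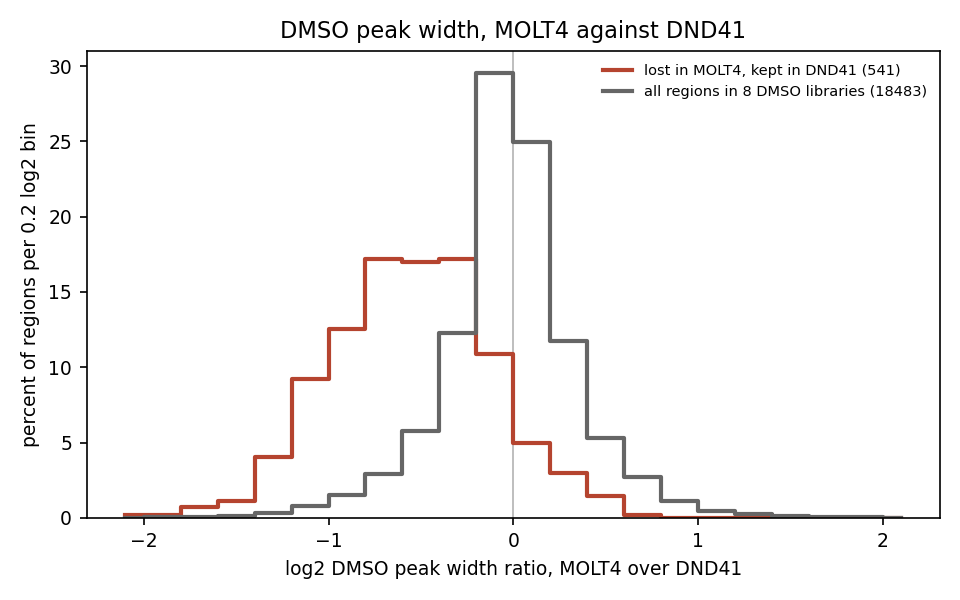
Distribution of the log2 DMSO peak width ratio, MOLT4 over DND41, as the percent of regions per bin of 0.2, for the 541 regions (red) and for all 18483 regions fitted (grey). Ratios beyond the axis are counted in the end bins. The red distribution has its median at -0.55 and the grey one at -0.02.

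The regions with the opposite pattern, lost in DND41 and kept in MOLT4, gave the mirror image in the same fit. Of those 502 regions, 2 were called narrower and 74, or 14.7%, wider in MOLT4, and their median log2 ratio was 0.49. Regions lost in both lines had a median ratio of -0.03, with 5 of 747 called narrower and 7 wider. In MOLT4 the 541 regions had a median DMSO width of 347 bp, close to the 327 bp of the regions lost in both lines. In DND41 they had 493 bp, against 318 bp for the regions lost in both lines and 676 bp for those kept in both. Both patterns were chosen by losses that were more frequent at narrow peaks in each line, so the mirror image is not independent of the choice. Whether these groups of regions differ was not tested.

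In each line, narrow DMSO peaks were the ones most often lost, and the lines followed nearly the same course. Of regions with a mean DMSO width under 250 bp in the line itself, 46.6% had a peak in at most 1 ACBI-1 library in MOLT4 and 51.2% in DND41. At 300 to 350 bp the shares were 30.0% in MOLT4 and 31.3% in DND41, and at 500 to 700 bp they were 2.88% and 2.49%. The 541 regions sat at different places on this course in each line. Of them, 352, or 65.1%, had a mean DMSO width under 400 bp in MOLT4, against 146, or 27.0%, in DND41. As background, the lines had similar numbers of narrow regions among all 18483. Under 250 bp and at 250 to 300, 300 to 350 and 350 to 400 bp lay 592, 934, 1141 and 1242 by MOLT4 width. By DND41 width these classes held 568, 882, 1158 and 1323. The shares lost and the shares of the 541 use the losses that chose the regions and are given as a description.

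**Figure D4:**
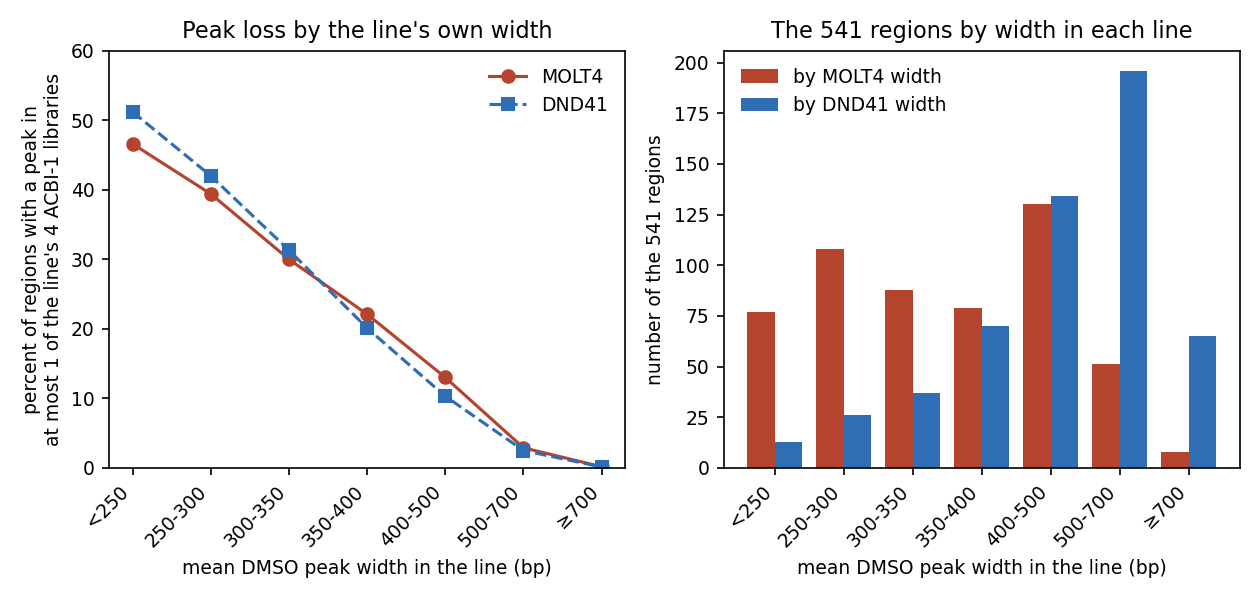
Left, percent of the 18483 regions with a peak in at most 1 of a line's 4 ACBI-1 libraries, by the mean DMSO peak width in that line in bp (MOLT4 red circles, DND41 blue squares). Right, number of the 541 regions in the same width classes, by MOLT4 width (red) and by DND41 width (blue). The curves nearly coincide, while 77 of the 541 regions are under 250 bp in MOLT4 and 13 in DND41. Of all 18483 regions, 592 and 568 are.

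Not every region was narrower in MOLT4. The ratio was above 0 at 52 of the 541. Between -0.1 and 0.1, where the lines had nearly equal width, lay 34 of the 541 regions among 5851 of all, and 47 of the regions with the opposite pattern. Of the regions in that range, 0.581% were lost in MOLT4 alone and 0.803% in DND41 alone. The range is one of ratios and is not matched for width itself. These shares use the losses that chose the regions and are a description. At a ratio below -1 the 541 regions made up 36.2% of the 232 regions there, and the opposite pattern none.

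The median ratios of classes just inside and just outside the rule overlapped. The 160 regions just inside it, with 1 MOLT4 and 3 DND41 ACBI-1 libraries, had a median log2 width ratio of -0.38. Just outside, the 335 regions with 2 MOLT4 and 3 DND41 libraries had -0.17 and the 245 with 1 MOLT4 and 2 DND41 libraries had -0.27. The other neighbouring classes outside it were more negative than those 160, at -0.42 for the 452 regions with 2 MOLT4 and 4 DND41 libraries and -0.43 for the 203 with 0 and 2. The 89 regions of full contrast had a median of -0.75, and 26 of them, or 29.2%, were called narrower in MOLT4, against 1.85% of all regions. Calls numbered 40 of the 200 regions with 1 MOLT4 and 4 DND41 libraries, and 52 of the 452 with 2 and 4.

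Where all 4 DND41 ACBI-1 libraries kept the peak, it was mostly narrower than with DMSO. Widths were not centred for this comparison. At 3 h the DND41 library medians over those of the 541 regions with a peak overlapped, at 290 and 415 bp with ACBI-1 and 485 and 372 bp with DMSO. At the 289 regions found in all 4 DND41 ACBI-1 libraries, the median log2 width ratio of ACBI-1 over DMSO in DND41 was -0.21 at 3 h and -0.52 at 24 h, and 85.8% were narrower with ACBI-1. Over all 13496 regions found in those 4 libraries and all DMSO libraries, the medians were -0.09 and -0.15, and 78.1% were narrower. Of these, 12755 were kept in both lines, with medians of -0.08 and -0.14 and 77.7% narrower. The 452 with a peak in 2 MOLT4 ACBI-1 libraries, just outside the rule, had -0.17 and -0.48, and 83.8% were narrower. The reduction at the 289 regions was thus close to that at the 452, and was not confined to regions chosen by the rule. In MOLT4, the 1 peak that remained at 360 regions had a median width of 237 bp with ACBI-1. The MOLT4 DMSO mean at the same regions had a median of 356 bp, and the remaining peak was narrower than that mean at 299 of them. That mean pooled both times, while 293 of the remaining peaks were at 3 h. At 3 h the MOLT4 DMSO medians over the 541 regions were 310 and 306 bp, against 363 and 375 bp at 24 h. The contrasts of ACBI-1 with DMSO given here are those of the rule and were not tested.

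Single regions showed the contrast to different degrees. No genome of the hg19 build was at hand, so regions are given by position (hg19, counted from 1) without sequence, and no gene was assigned to them. The smallest adjusted p among the 541 was on chromosome 7 from 120884220 to 120885133. Its DMSO peak was 206, 217, 160 and 191 bp wide in MOLT4 and 702, 651, 786 and 665 bp in DND41, in the order of the 2 libraries of 3 h and the 2 of 24 h. With ACBI-1 it was absent from all 4 MOLT4 libraries and measured 678, 696, 712 and 800 bp in DND41. Every DND41 peak, with or without drug, was over 600 bp wide, and no MOLT4 peak reached 220 bp. The fitted DMSO log2 ratio was -1.92 (SE 0.17, limma adjusted p = 0.00234), and the adjusted p was at most 0.0136 without any 1 DMSO library.

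The most negative ratio was on chromosome 2 from 157963374 to 157964818, at -2.15 (SE 0.35, limma adjusted p = 0.0186). Its DMSO widths were 201, 164, 555 and 173 bp in MOLT4 and 1274, 457, 1330 and 1346 bp in DND41. The widest MOLT4 peak thus passed the narrowest DND41 one, but they came from different times. Without 1 DND41 DMSO library, replicate 1 of 3 h or either replicate of 24 h, the limma adjusted p there was 0.053 to 0.0543. A region on chromosome 14 from 53693144 to 53694342 had DMSO widths of 250, 277, 727 and 256 bp in MOLT4 and 1048, 1067, 1110 and 1181 bp in DND41 (log2 ratio -1.76, SE 0.28, limma adjusted p = 0.0176). There the DND41 peak stayed at 891 to 1037 bp with ACBI-1, and the only MOLT4 peak with ACBI-1 was 173 bp wide. Its limma adjusted p was 0.0536 without DND41 DMSO replicate 1 of 3 h and 0.0625 without replicate 2 of 3 h. On chromosome 1 from 9688987 to 9690327 the DMSO widths were 415, 158, 210 and 416 bp in MOLT4 and 941, 905, 1297 and 648 bp in DND41 (log2 ratio -1.80, SE 0.36, limma adjusted p = 0.0339). Without MOLT4 DMSO replicate 2 of 3 h or replicate 1 of 24 h, or DND41 DMSO replicate 1 or 2 of 3 h or replicate 1 of 24 h, that adjusted p was 0.0605 to 0.102. At this site DND41 kept 881 and 1034 bp with ACBI-1 at 3 h, and 362 and 196 bp at 24 h.

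The broadest of the 541 regions by DMSO width lay on chromosome 3 from 47058257 to 47059594. Its DMSO peak measured 514, 524, 1033 and 955 bp in MOLT4 and 994, 840, 1325 and 1187 bp in DND41 (log2 ratio -0.63, SE 0.12, limma adjusted p = 0.0275). The limma adjusted p was 0.0533 to 0.074 without any 1 DMSO library other than MOLT4 replicate 1 of 24 h and DND41 replicate 2 of 24 h. With ACBI-1 the only MOLT4 peak was 217 bp wide, and DND41 had 153 and 586 bp at 3 h and 260 bp in 1 library at 24 h. The next broadest were on chromosomes 21, 12 and 11. On chromosome 11 from 56473230 to 56474462 the 1 remaining MOLT4 peak, at 3 h, was wider with ACBI-1, at 840 bp, than any MOLT4 DMSO peak there, which measured 352, 513, 666 and 443 bp. In DND41 that site had 1068, 1104, 1195 and 1146 bp with DMSO, all wider than any in MOLT4 (log2 ratio -1.29, SE 0.16, limma adjusted p = 0.00745). At the other end, the 4 narrowest regions, on chromosomes 4, 1, 11 and 3, had mean DMSO widths of at most 229 bp over all 8 libraries, and none passed the test between lines.

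The 4 regions of full contrast with the widest MOLT4 peaks had mean DMSO widths of 536 to 606 bp in MOLT4. These were above the MOLT4 median of the 541 regions, 347 bp, and below that of all regions, 614 bp. On chromosome 7 from 36977291 to 36978288 the DMSO peak was 634, 588, 609 and 407 bp wide in MOLT4 and 654, 263, 807 and 830 bp in DND41. The widths overlapped (log2 ratio -0.13, SE 0.29, limma adjusted p = 0.839). All 4 MOLT4 ACBI-1 libraries lacked the peak and all 4 of DND41 had it, at 268 to 589 bp. On chromosome 3 from 106021136 to 106022138 the DMSO mean was 546 ± 156 bp in MOLT4 and 648 ± 113 bp in DND41 (SD, n = 4 each), with a limma adjusted p of 0.258. The broadest in MOLT4 of this kind lay on chromosome 10 from 134364336 to 134365526, at 606 ± 259 bp in MOLT4 and 894 ± 145 bp in DND41 (SD, n = 4 each; limma adjusted p = 0.141). Of the 541 regions, 59, or 10.9%, had a mean MOLT4 DMSO width of at least 500 bp. Among all 18483 regions such widths were common, with 4923 regions at 500 to 700 bp in MOLT4 and 7187 at 700 bp or more.

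The most positive ratio among the 541 was on chromosome 1 from 9339006 to 9339834, at 0.71 (SE 0.23, limma adjusted p = 0.132). The DMSO peak was 240, 483, 813 and 798 bp wide in MOLT4 and 189, 147, 647 and 506 bp in DND41. MOLT4 was the wider line within each time. With ACBI-1 its 4 libraries had no peak, and DND41 had 303, 225 and 188 bp in 3 of 4. The next most positive, on chromosomes 17, 22 and 12, had ratios of 0.56, 0.54 and 0.51 and did not pass the test either.

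Of the 541 regions, 45 lay within 50 kb of another of them, in 22 groups, and 496 did not. This count has no background. The nearest region within 50 kb was itself among the 541 in 8.36% of cases, against 2.93% for all regions. The one group of 3 was on chromosome 8 from 6747679 to 6811427, where no other region was found in every DMSO library. Its middle region, from 6787871 to 6788543, had DMSO widths of 240, 253, 185 and 157 bp in MOLT4 and 630, 378, 638 and 416 bp in DND41 (log2 ratio -1.35, SE 0.21, limma adjusted p = 0.0161). The 2 tightest pairs were on chromosome 8 from 122736383 to 122738513 and on chromosome 18 from 60765389 to 60767928, and no region of either passed the test. Without MOLT4 DMSO replicate 1 of 3 h, the region at 60766924 on chromosome 18 had a limma adjusted p of 0.0182.

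The nearest other regions gave values in the same direction, on a smaller scale, and no test was made of them. A region with a peak in all 8 DMSO libraries lay within 50 kb of 359 of the 541, or 66.4%, against 68.3% for all regions. Of these nearest regions, 30, or 8.36%, were themselves among the 541, against 2.93% for all regions, and 3 had the opposite pattern. Leaving out nearest regions that were among the 541, the other 329 had a median DMSO log2 width ratio of -0.10, against 0.00 for the 12247 nearest regions of all regions treated likewise. In ACBI-1 libraries these 329 regions had a peak in 79.8 ± 10.0% in MOLT4 and 83.7 ± 6.76% in DND41 (SD, n = 4 each). For the 12247 it was 87.2 ± 5.06% in MOLT4 and 85.4 ± 4.89% in DND41 (SD, n = 4 each). These spreads pool both times. At 3 h the 329 regions had a peak in 87.8 and 89.1% in MOLT4 and in 86 and 92.1% in DND41, which overlapped. At 24 h they had 72 and 70.2% in MOLT4 and 77.2 and 79.3% in DND41, where both MOLT4 values were lower. The 12247 regions had 83.8 and 82% in MOLT4 and 82 and 81.4% in DND41 at 24 h.

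Regions open with DMSO only in DND41 were also counted nearby, again as a description. Of the 541 regions, 140, or 25.9%, had within 50 kb a region with a peak in all 4 DND41 and no MOLT4 DMSO library, against 10.9% of all regions. The reverse kind, a region open with DMSO only in MOLT4, lay near 14.4% of the 541 and 17.6% of all. Around the regions of opposite pattern the shares were 5.98% for DND41-only and 22.5% for MOLT4-only regions. In all there were 2399 DND41-only and 4543 MOLT4-only regions.

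**Figure D5:**
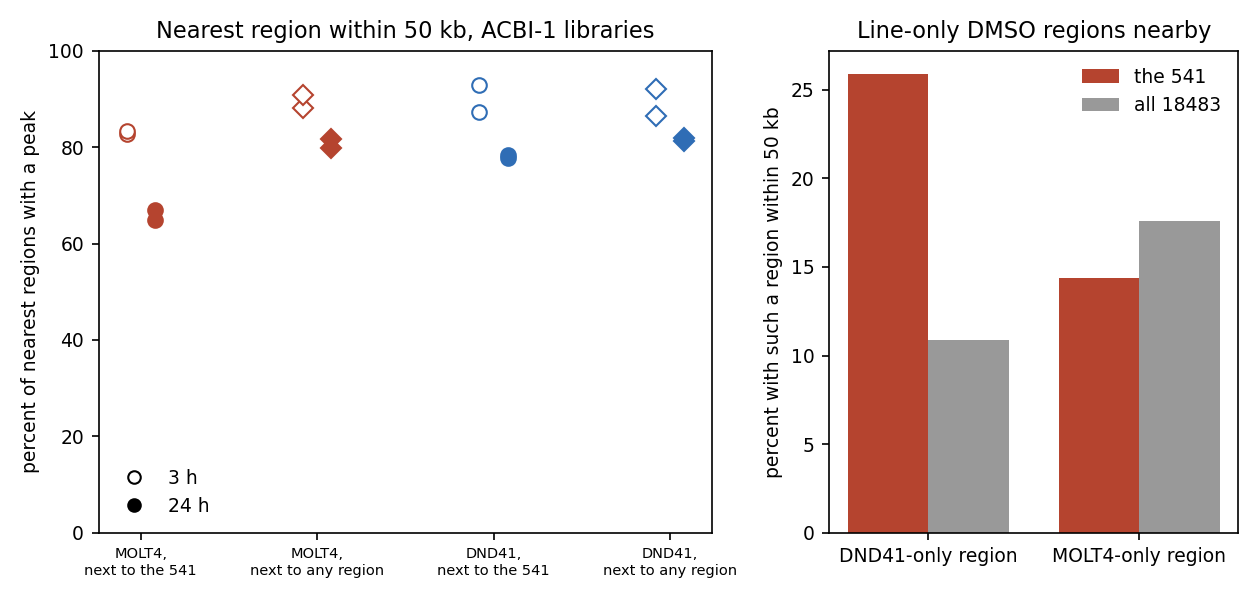
Left, percent of nearest regions within 50 kb that had a peak in each ACBI-1 library, for the nearest regions of the 541 (circles, 359 nearest regions, 30 of which are among the 541) and of all regions (diamonds, 12617), in MOLT4 (red) and DND41 (blue), at 3 h (open) and 24 h (filled). Right, percent of the 541 regions and of all 18483 with a DND41-only or MOLT4-only DMSO region within 50 kb. Next to the 541, MOLT4 libraries of 24 h had 66.9 and 64.9% and DND41 libraries of 24 h had 77.7 and 78.3%.

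The 541 regions were on all 23 chromosomes analysed, in unequal shares. Chromosome 18 had the highest share, 19 of its 286 regions or 6.64%, and chromosomes 17 and 19 the lowest, 5 of 849 or 0.589% and 5 of 861 or 0.581%. Regions of the opposite pattern made up 0.699% of chromosome 18, 5.06% of chromosome 17 and 1.74% of chromosome 19. The median DMSO log2 width ratio over all regions of the chromosome was -0.22 on chromosome 18, 0.15 on chromosome 17 and 0.09 on chromosome 19. Chromosome 21 did not follow this order: 9 of its 220 regions, or 4.09%, were among the 541 and 9.55% had the opposite pattern, at a median ratio of 0.07. When widths were centred within each chromosome, a setting chosen after seeing the data, 73 of the 541 regions were called narrower in MOLT4 by limma, against 281 of all regions or 1.52%, and 292 of all were wider. The median log2 ratio of the 541 was -0.50 in that setting. The part of these chromosome-wide shifts in the choice of the 541 regions was not tested.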

How the data were processed

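Each deposited file was the peak list of 1 library, with 4 columns of chromosome, start, end and name. Per the submitters' processing notes, the tools were MACS2 2.1.1.2016030, Bowtie2, SAMtools and Picard and the build was hg19. Their roles and settings are not stated. Only positions were used. Heights, scores and read totals were not analysed here. Overlapping peaks (1 base or more) of the 16 libraries on chromosomes 1 to 22 and X were joined into regions, and libraries were grouped by title.

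Log2 width was fitted with limma 3.58.1 in R 4.3.3 (empirical Bayes with trend, two-sided, time as covariate) over the 8 DMSO libraries, at every region found in all 8, with Benjamini-Hochberg adjustment over all 18483, and was first tested on simulated data. Regions were named by largest and smallest DMSO width, most extreme width ratio, widest MOLT4 peak among those of full contrast, and groups within 50 kb. The regions and comparisons were chosen with earlier results of these data known. The gene and promoter tables at hand are on another build and were not used.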

Additional observations from a re-analysis of the deposited data

How the results depend on the processing

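The number of regions was 541 as reported, and 503 to 543 with all sequences, a 100 bp merging gap, a shared core or a 170 bp minimum peak width. It was 185 with lists of equal length and 89 under the stricter rule. It was 542 to 1208 without 1 library, where leaving out an ACBI-1 library loosens the rule. The share narrower in MOLT4 was 88.5 to 97.8% under the settings tried, except 86.7% at 3 h alone and 87.1% at 24 h alone. Their median log2 ratio was -0.491 with 3 h libraries only, -0.479 with the 170 bp minimum and -0.755 under the stricter rule. Regions called narrower, among the 541 and among all, and all called wider, numbered 35, 121 and 175 with no centring. With the replicate block they numbered 36, 150 and 127. Deviations of same-numbered libraries of the lines, which the block joins, correlated at only -0.0228 at 3 h and -0.00624 at 24 h, so the numbers did not pair them. The calls were 0, 0 and 0 at either time alone. There, all regions with an unadjusted limma p under 0.05 numbered 1156 narrower and 1133 wider at 3 h and 1394 and 1292 at 24 h. Without the 3 h replicate 2 libraries, added after seeing the data, they were 13, 62 and 49. All called wider were 120 on width percentiles and 192 without the time covariate. Under the stricter rule 26 of 89 regions were called narrower. Without any 1 DMSO library, 28 to 49 of the 541 and 102 to 175 of all were called narrower, 80 to 163 of all were called wider, and 0 to 1 of the 541 was wider. The share called was thus 5.18 to 9.06% of the 541 and 0.552 to 0.947% of all. Among 27 named regions the ratio changed sign 8 times, at none of those called with all libraries. On chromosome 7 at 36977291 it was 0.471 with 3 h libraries only, 0.089 or 0.004 without replicate 2 at 24 h of MOLT4 or DND41, and -0.455 without replicate 2 at 3 h of DND41. On chromosome 18 at 60765389 it was, at 3 h, 0.025 without replicate 2 of MOLT4, 0.11 without replicate 1 and -0.348 without replicate 2 of DND41, and 0.143 centred by chromosome. On chromosomes 3 at 179644985 and 22 at 47008798 it was 0.083 and -0.237 with 24 h libraries only. The cause of these changes was not tested. Without read depth, a peak absent from a list cannot be told from one under its threshold.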

Other observations

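Whether the width difference between the lines itself differed between 3 h and 24 h was tested after the data were seen, as a line by time interaction in limma over the 8 DMSO libraries. It called 0 of 18483 regions at an adjusted p under 0.05, and 1179 had an unadjusted p under 0.05. Among the 541 regions lost in MOLT4 and kept in DND41, 65 had an unadjusted p under 0.05, or 12%, against 6.38% of all regions. A library had more than 1 peak in 83 of the 541 regions, and with the summed width of such peaks 114 of the 541 were called narrower in MOLT4, against 476 of all regions.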
